A study of Mus musculus with 16 samples.

Results

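Ageing of subcutaneous white fat with intact Nampt was measured by setting the 5 old control libraries against the 3 young control libraries, 8 of the 16 libraries of the series. The members were chosen by their labels for genotype and age, and all genes were compared: 21206 of the 40322 gene symbols had enough reads to be tested. The study deleted Nampt, whose enzyme salvages nicotinamide into NAD, in fat cells of C57BL/6J mice and sequenced total RNA depleted of ribosomal RNA (Ribo-Zero Gold). The controls were flox/flox mice, with loxP sites in Nampt and no Cre named in the labels. They were 2 months old (young) or 22 to 27 months old (old). The 3 young and 5 old knockouts of the other 8 libraries, ANKO, also carried an adiponectin-Cre transgene, which is expressed in adipocytes. All mice ate regular chow at room temperature, and they were female, per the title of the series. The labels do not say that the libraries are from different animals, and p-values therefore cover only how these libraries vary, which may be technical.

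Subcutaneous fat stores triglyceride in adipocytes and secretes hormones such as leptin and adiponectin. In the female mouse the depot also holds mammary gland, lymph nodes, blood vessels and immune cells, and it lies against muscle. Its cells run a circadian clock, in which Arntl with Clock or Npas2 drives the Per, Cry and Nr1d genes and output factors such as Dbp, and these repress the drivers or pass the rhythm on. Fat of old animals is known for changed immune cell content, lower plasticity and markers of senescent cells.

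The 8 control libraries held between 19277403 and 30779298 counted reads. Adipocyte genes were abundant in each: the summed level of 26 adipocyte identity genes ran from 26930 to 40640 CPM (a gene's reads scaled to the effective library size) in the young and from 14560 to 42960 in the old libraries. The first principal component held 33.4% of the variance and set old controls 2 and 5 apart from the other 6 libraries. Old control 2 held milk protein transcripts: Csn2, beta-casein, lay at 5882 CPM there, against 0.171 to 35.3 in the other old and at most 0.542 in the young libraries. Old control 5 held the most muscle RNA, with Myh4, a fast muscle myosin, at 21240 CPM against 16.99 to 4336 in the other 7 libraries. Lep, the gene of leptin, lay at 1820 and 1666 CPM in old controls 2 and 5 and between 82.2 and 339 in the other 6. In bulk tissue, fewer cells of a type and less RNA per cell cannot be told apart.

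**Figure D1:**
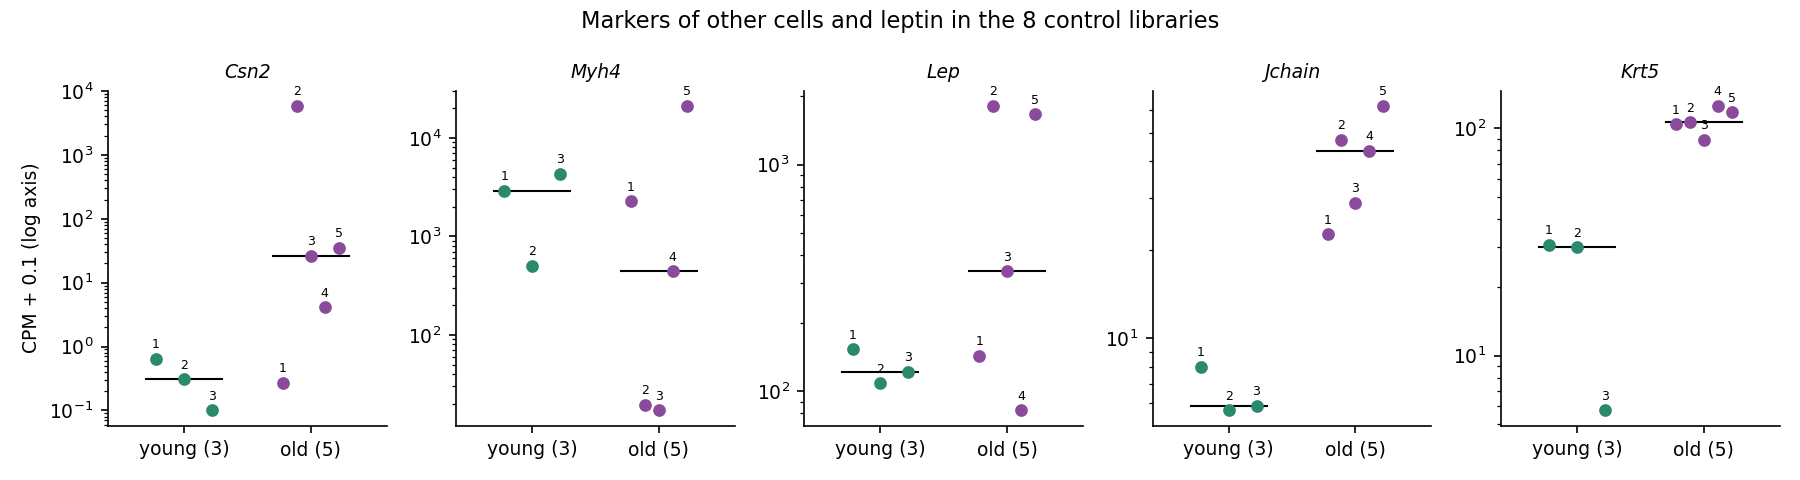
Level of 5 genes in each control library, as CPM + 0.1 on a log axis; points are libraries numbered by replicate, and bars are group medians. Csn2, Myh4 and Lep are highest in old control 2 or 5, whereas Jchain and Krt5 are higher in all 5 old than in all 3 young libraries.

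Old control fat differed from young by 104 genes, 89 higher and 15 lower, at an adjusted p under 0.05 in edgeR's quasi-likelihood test with Benjamini-Hochberg adjustment. These were 0.490% of the genes tested, 0.420% higher and 0.0707% lower, and 85 of them differed by at least 2-fold. In each of the 104 genes the 5 old libraries lay entirely above or below the 3 young ones. Such separation occurred in 5.18% of all genes upwards and 2.93% downwards. The median log2 fold change of all genes was 0.04. For the counts given below at looser or other tests, 13.1% of all genes were under an unadjusted p of 0.05 in edgeR (2769 genes), and 3.85% of the 21171 genes to which DESeq2 gave an adjusted p were called by it (816 genes). The calls depended on single libraries: leaving out 1 control library at a time left between 6 (without young control 2 or 3) and 212 (without old control 5) calls, and C130026I21Rik, AC133103.1, Gm2619 and Dbp were called in the full comparison and in each of these 8. Without old controls 2 and 5 together, 192 genes passed (0.913% of 21020), 78 of them among the 104. The fits above kept the ANKO libraries in the model, and a fit of the 8 control libraries alone called 4 genes. Of the 104, 3 were called in that fit: C130026I21Rik, Dbp and Foxc1. AC133103.1 and Gm2619 were not called in it (adjusted p 0.07565 and 0.08896).

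**Figure D2:**
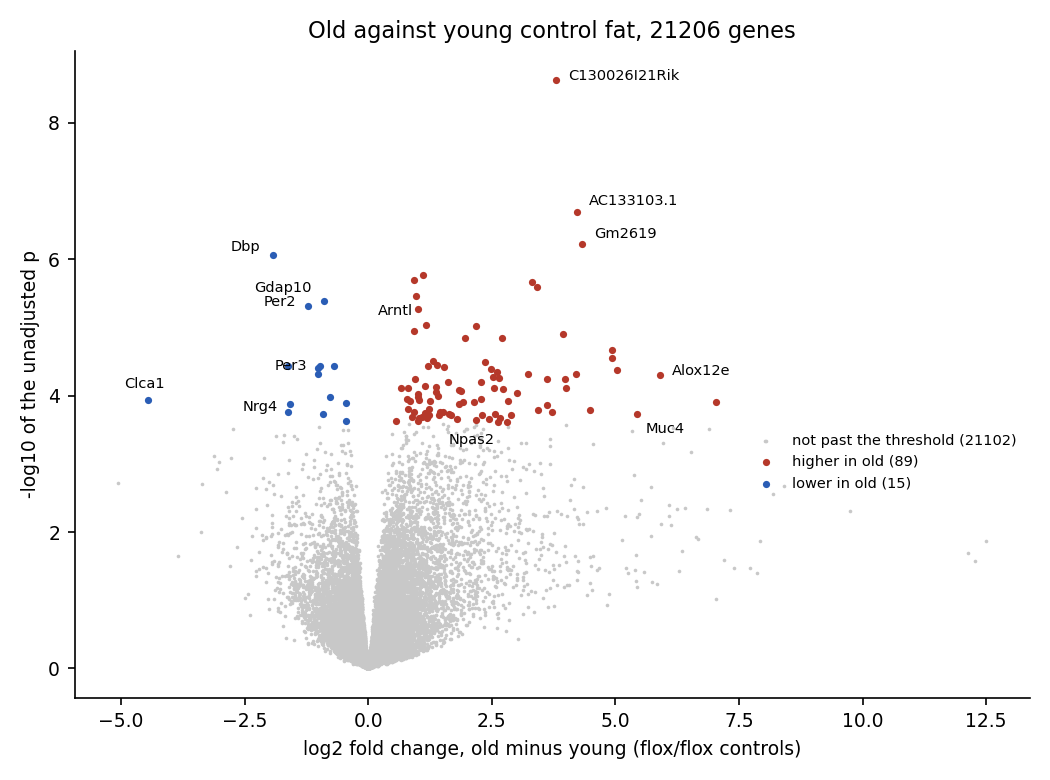
Log2 fold change of old against young control fat (x axis) and -log10 of the unadjusted p (y axis) for the 21206 genes tested; red points are the 89 genes called higher and blue points the 15 called lower. C130026I21Rik has the smallest p, and clock genes stand among the blue points.

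Clock genes were the list with the most calls. Of 18 clock genes, all tested, 4 fell with age, 2 rose and 12 did not pass, a share of 6 in 18 against the 0.490% of all genes, with a list median of -0.16. Dbp, an output transcription factor that binds D-box elements, lay at 75.8, 76.2 and 118 CPM in young controls 1 to 3 and at 27.8, 23.2, 22.9, 19.1 and 25.6 CPM in old controls 1 to 5. All old libraries were thus well below the lowest young one, and the log2 fold change was -1.92 ± 0.24 (SE; adjusted p = 0.00461). Per2, a repressor of the clock's drivers, lay at 48.2, 67.6 and 58.5 CPM in the young and 21.3, 27.2, 27.1, 22.3 and 27.5 CPM in the old libraries. The old values of Per2 sat close together and under all young ones, a log2 fold change of -1.21 ± 0.18 (adjusted p = 0.00925). Per3, its paralog, lay at 112, 127 and 163 CPM in the young and 60.5, 66.2, 72.3, 52.6 and 89.3 CPM in the old libraries. The groups did not overlap, although old control 5 came near the lowest young library, and the log2 fold change was -0.97 ± 0.17 (adjusted p = 0.0284). Nr1d2, a nuclear receptor that represses Arntl, went from 91.7, 92.1 and 101 CPM to 57.5, 54.6, 56.2, 51.1 and 72.6 CPM, with old control 5 again the highest of the old, and its log2 fold change was -0.70 ± 0.12 (adjusted p = 0.0284).

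The drivers of the clock moved the other way. Arntl, which encodes the activator BMAL1, lay at 16.5, 12.5 and 11.4 CPM in the young and 31.3, 26.9, 36.2, 23.1 and 34.2 CPM in the old libraries. Every old library was above every young one, with a log2 fold change of 1.17 ± 0.18 (adjusted p = 0.0145). Npas2, a partner of Arntl, lay at 4.70, 5.48 and 2.79 CPM in the young and 14.1, 20.9, 11.0, 12.3 and 17.4 CPM in the old libraries. The lowest old value of Npas2 was above the highest young value, and the log2 fold change was 1.81 ± 0.37 (adjusted p = 0.0478). Clock, the other partner, did not pass: its libraries overlapped, at 73.9 to 89.2 CPM in the young and 77.8 to 138 CPM in the old (log2 fold change 0.37 ± 0.16, adjusted p = 0.321). Tef, a factor related to Dbp, lay at 150, 174 and 205 CPM in the young and 82.5, 78.5, 71.5, 61.8 and 135 CPM in the old libraries, where old control 5 stood apart from the other 4. Tef missed the threshold (log2 fold change -1.04 ± 0.24, adjusted p = 0.0728) and passed at 0.0158 when old control 5 was left out. With old controls 2 and 5 both left out, 5 clock genes were lower and 1 higher, since Npas2 was no longer called (adjusted p = 0.0747). Npas2 was also not called without any 1 of young controls 1, 2 and 3 (0.135, 0.113 and 0.263) or of old controls 2, 3 and 4 (0.0858, 0.0534 and 0.0739), or with no filter on low counts (0.0536). Dbp was called in each leave-one-out fit, with an adjusted p of 0.0472 without young control 3; Per2 and Arntl lost the call without young control 2 (0.0634 and 0.0834) or 3 (0.0617 and 0.106). Per3 and Nr1d2 lost it without young control 2 (0.0851 each) or 3 (0.201 and 0.186) and without old control 2 (0.0538 each) or 4 (0.0512 and 0.0517); Nr1d2 lost it also without young control 1 (0.0753). In the fit of the 8 control libraries alone Dbp kept the call (0.02512). Per2, Per3, Nr1d2, Arntl and Npas2 lost it there (0.06524, 0.1732, 0.1718, 0.1662 and 0.1486). Clock transcripts cycle over the day, and no source used here gives the hour at which tissue was collected.

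**Figure D3:**
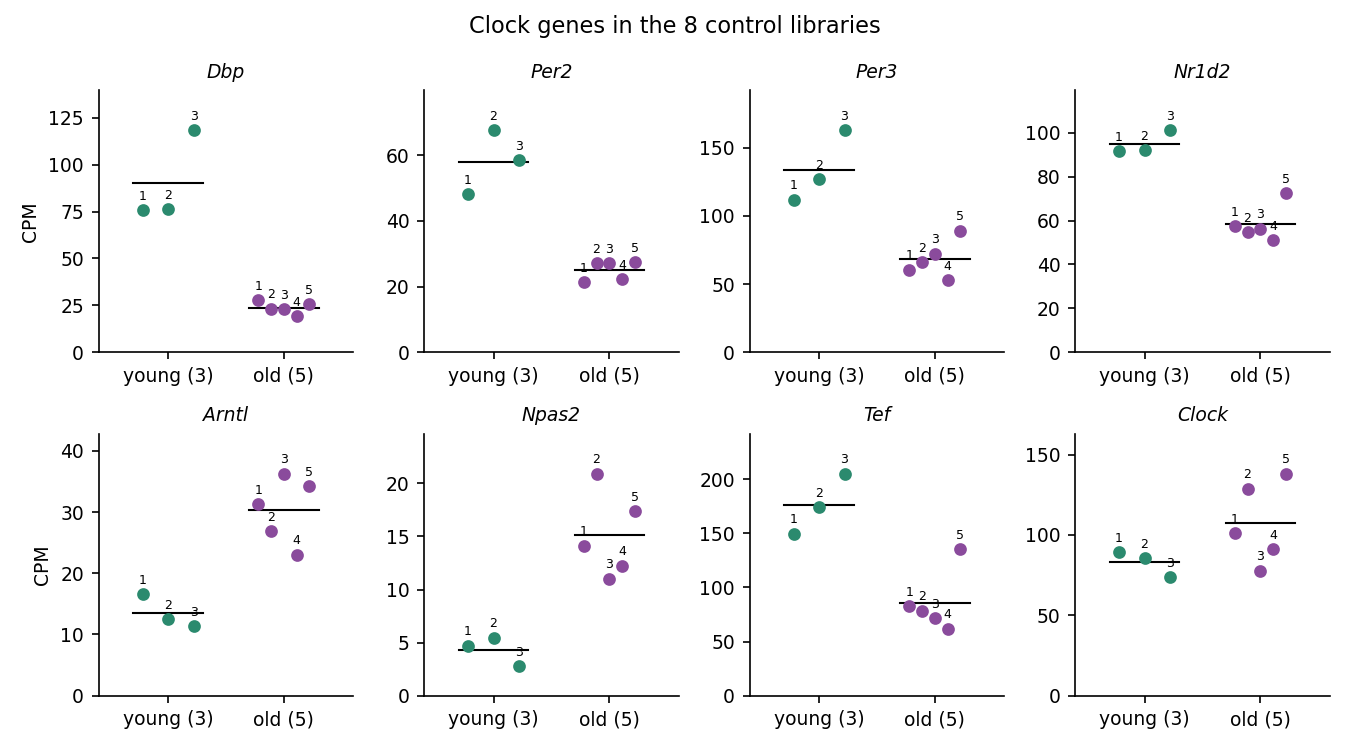
Level in CPM (linear axis from 0) of 8 clock genes in each control library; points are libraries numbered by replicate, and bars are group means. The 5 old libraries lie below the 3 young for Dbp, Per2, Per3, Nr1d2 and Tef and above them for Arntl and Npas2, while Clock overlaps.

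Since several of these genes moved together, the 250 bases before each gene start in RefSeq's promoter table (GRCm38.p6) were searched on both strands for the E-box CACGTG, the element bound by Arntl with its partners, and the D-box TTATGTAA, bound by Dbp and Tef. Of all 32851 windows, 6.02% held the E-box and 0.819% the D-box. Of the 18 clock genes, 15 had an entry; Bhlhe41, Ciart, Cry1, Per1 and Tef held an E-box, and Per3 held D-boxes. Of the 6 genes called, 5 had an entry, and among them only Per3 held either motif. The windows of Per3 (chr4:151044666-151044915, minus strand, D-boxes in capitals that begin 205 and 158 bases before the start), Tef (chr15:81802423-81802672, plus strand, E-box in capitals, 127 bases before the start) and Dbp (chr7:45704997-45705246, plus strand, no match) are shown 5′ to 3′ because they hold each of the 3 outcomes of the search.
Per3: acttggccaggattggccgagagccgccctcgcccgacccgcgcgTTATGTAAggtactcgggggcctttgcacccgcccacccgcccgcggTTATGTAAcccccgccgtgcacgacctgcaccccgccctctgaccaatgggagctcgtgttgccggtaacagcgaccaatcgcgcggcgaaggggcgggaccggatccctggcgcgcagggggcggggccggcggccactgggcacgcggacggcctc
Tef: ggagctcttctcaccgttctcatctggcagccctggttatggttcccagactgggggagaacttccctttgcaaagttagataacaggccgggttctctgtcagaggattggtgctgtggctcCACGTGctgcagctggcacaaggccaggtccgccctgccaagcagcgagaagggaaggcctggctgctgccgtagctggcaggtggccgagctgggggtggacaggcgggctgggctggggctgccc
Dbp: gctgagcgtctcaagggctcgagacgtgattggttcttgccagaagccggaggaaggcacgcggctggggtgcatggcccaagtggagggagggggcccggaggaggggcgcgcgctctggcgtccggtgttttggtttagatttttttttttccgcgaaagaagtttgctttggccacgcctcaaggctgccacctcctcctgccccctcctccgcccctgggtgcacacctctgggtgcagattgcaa

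Nampt itself (chromosome 12, 32819545 to 32853349, plus strand) lay at 86.3, 95.4 and 89.0 CPM in the young and 61.2, 76.9, 47.2, 50.7 and 78.6 CPM in the old control libraries. All old libraries were lower than all young ones, but the difference did not pass (log2 fold change -0.52 ± 0.15, adjusted p = 0.125). It passed without old controls 2 and 5, the 2 highest of the old, at an adjusted p of 0.00871. With no library left out, DESeq2 called Nampt lower (adjusted p = 0.03817). In ANKO fat, whose deletion was driven by adiponectin-Cre, Nampt ranged from 48.7 to 51.7 CPM in the young and from 45.0 to 54.2 CPM in the old libraries. Gdap10, a long non-coding RNA annotated inside Nampt on the same strand (chromosome 12, 32821872 to 32826904) and named after its values were seen, fell with age: 29.2, 41.5 and 34.5 CPM in the young and 23.5, 17.1, 17.8, 17.6 and 18.4 CPM in the old libraries (log2 fold change -0.89 ± 0.13, adjusted p = 0.00856). The old libraries lay below the young, with old control 1 the highest of them; the call was lost without young control 2 (0.0631) or 3 (0.0617). Reads of Gdap10 and of unspliced Nampt cannot be told apart. Of the 25 genes of NAD metabolism none passed in edgeR, with a median of -0.11, and Nampt had the smallest p among them. Of these, 2 were under an unadjusted p of 0.05, against 13.1% of all genes. DESeq2 called 1, Nampt, against 3.85% of all genes.

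The smallest p of the comparison belonged to a stretch of chromosome 1 between 84963669 and 85485142 (521.5 kb), which was singled out after its values were seen. Its ends were set at the outermost called genes, Gm15433 and Gm2666, so that no gene just outside it is called follows from how it was drawn. The same choice raises the shares of called and separated genes inside it, and these shares were not tested. Of 16 genes tested there, 7 rose (against 0.420% of all genes), none fell, and 10 had all old libraries above all young ones (against 5.18%), with a median log2 fold change of 2.09. On all of chromosome 1, 14 of 1372 genes were called. Beyond the interval's end, Gm7592 had a log2 fold change of 2.14 and was not called, and over the 30 genes tested in the 1000 kb on either side the median was 0.01. C130026I21Rik, a gene annotated as protein-coding, lay at 1.08, 0.569 and 0.948 CPM in the young and 15.1, 7.47, 13.0, 12.5 and 13.0 CPM in the old libraries. Every old library stood far above every young one, with a log2 fold change of 3.80 ± 0.30 (adjusted p = 5.03e-05), and it was called in each leave-one-out fit. Gm2619, a transcribed pseudogene, lay at 0.588, 0.362 and 0.421 CPM in the young and 8.19, 3.40, 9.86, 7.17 and 17.9 CPM in the old libraries (log2 fold change 4.32 ± 0.53, adjusted p = 0.0043). Gm7609, another transcribed pseudogene, went from 1.08, 0.827 and 0.685 CPM to 8.06, 3.13, 10.8, 7.94 and 13.7 CPM (log2 fold change 3.32 ± 0.45, adjusted p = 0.00644). In both pseudogenes old control 5 was the highest and old control 2 the lowest of the old, and all were above the young. Gm7609 lost the call without young control 2 (0.0582) or 3 (0.0617).

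The other 4 called genes of the interval were near 0 in young fat. Gm15433 lay at 0.181, 0.724 and 0 CPM in the young and 2.11 to 6.22 CPM in the old libraries. Gm16028, annotated antisense to C130026I21Rik, lay at 0, 0 and 0.211 CPM in the young and 1.05 to 3.56 CPM in the old libraries. Gm16025 had 2 reads over the young and 137 over the old libraries, a ratio of 35 after scaling to library size (exact 95% interval 9.51 to 292, counting error only). Gm2666 had 3 and 142 reads, a ratio of 24.2 (8.11 to 119). These 4 lost the call without at least 2 of the young libraries (adjusted p up to 0.218, for Gm2666). AC133103.1 and Csprs, which the annotation places on scaffolds outside the assembled chromosomes, also rose, with log2 fold changes of 4.22 ± 0.47 (adjusted p = 0.00213) and 3.24 ± 0.58 (adjusted p = 0.0294). Csprs lost the call without young control 1, 2 or 3 (0.09401, 0.116 and 0.1736) or old control 4 (0.05122). AC133103.1 went from 0.678, 0.258 and 0.211 CPM to 11.9, 4.76, 8.04, 7.63 and 4.50 CPM. The neighbouring immune genes Sp100, Sp110 and Sp140 did not pass, with log2 fold changes of -0.47, -0.42 and 0.03. Most genes of this interval are annotated as pseudogenes and how reads with several matches were counted is not stated, so which copy gave the reads is uncertain.

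**Figure D4:**
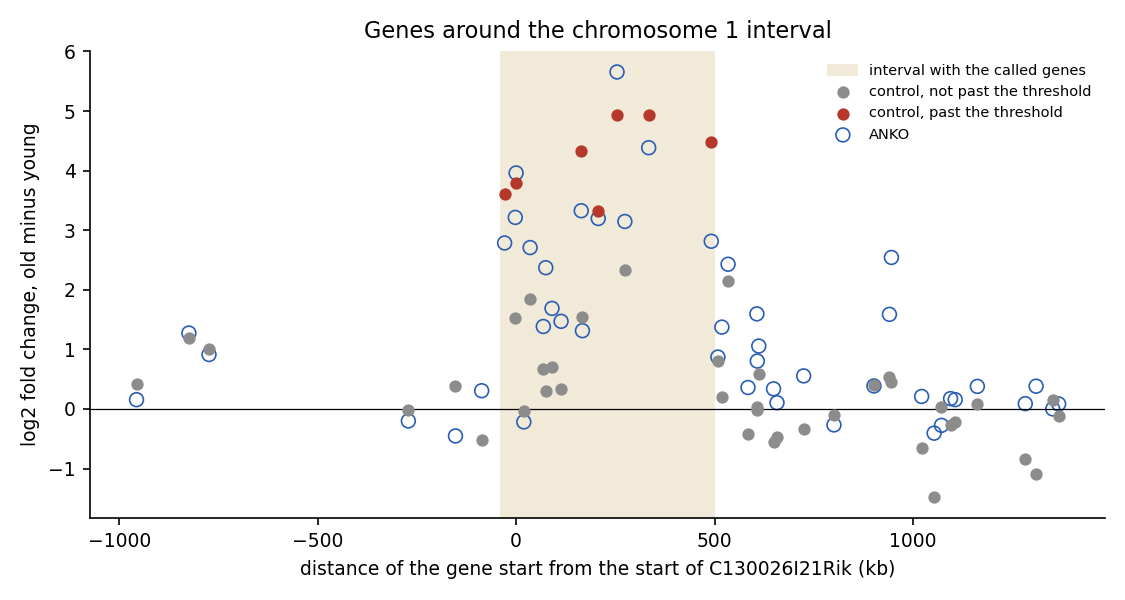
Log2 fold change of old against young (y axis) for genes in the chromosome 1 interval (shaded) and 1000 kb on either side, by distance of the gene start from that of C130026I21Rik (x axis); filled points are control fat, red where called, and open circles ANKO fat. The shaded interval runs between the outermost of the 7 called genes by construction, and the red points lie between 3.32 and 4.94.

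Among named genes, those of at least 1 CPM on average and no predicted model, the 10 largest rises were mostly in genes at low levels in young fat. Alox12e, an epidermal lipoxygenase, lay at 0.904, 0.103 and 0.211 CPM in the young and 9.52, 14.8, 42.2, 43.0 and 17.7 CPM in the old libraries (log2 fold change 5.90 ± 1.04, adjusted p = 0.0299). Muc4, a membrane mucin, lay at 2.26, 1.34 and 0.158 CPM in the young and 8.45, 98.8, 65.3, 68.0 and 35.7 CPM in the old libraries (log2 fold change 5.44 ± 1.09, adjusted p = 0.0451). For Muc4 old control 1 was far below the other 4 old libraries but still above the young. Fcgbp, a secreted mucus-associated protein and by far the most abundant of this group, lay at 127, 100.4 and 12.6 CPM in the young and 596, 1076, 1457, 1886 and 1264 CPM in the old libraries. The lowest old value was well above the highest young one, with a log2 fold change of 3.97 ± 0.71 (adjusted p = 0.0299). Brinp3, a secreted neural protein, lay at 1.22, 0.775 and 0.263 CPM in the young and 3.22, 9.24, 9.48, 7.79 and 11.2 CPM in the old libraries (log2 fold change 3.42 ± 0.47, adjusted p = 0.00686). It lost the call only without young control 2, at 0.0582, of the 8 leave-one-out fits.

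The rest of the 10 highest were Chst9, a sulfotransferase for sugars, Sox14, a transcription factor, Kcnd2, a potassium channel subunit, Prr32, Togaram2, a microtubule protein, and Wdr72. Chst9 had 3 reads over the young and 201 over the old libraries, a ratio of 34.3 (exact 95% interval 11.6 to 167, counting error only). Sox14 ranged from 0.103 to 0.362 CPM in the young and lay at 2.74, 4.55, 3.54, 10.5 and 3.48 CPM in the old libraries, with old control 4 apart from the rest. Kcnd2, Prr32, Togaram2 and Wdr72 had log2 fold changes of 4.01, 3.71, 3.61 and 3.43. Single libraries moved these values. Without young control 2, Kcnd2 stood at 5.32 and Togaram2 at 4.21. Prr32 stood at 3.06 without old control 5, Wdr72 at 2.97 without old control 2, and Alox12e at 7.30 without young control 1. Of these 10 genes, all but Brinp3 lost the call without any 1 of the 3 young libraries (adjusted p up to 0.239, for Wdr72). Smaller rises in well measured genes, named after their values were seen, included S100a4, a calcium-binding protein of fibroblasts and macrophages (8.59, 9.61 and 7.90 CPM to 18.95, 15.2, 18, 13.9 and 17.4 CPM, log2 fold change 0.94 ± 0.13), Cadm1, a cell adhesion molecule (1.12 ± 0.15), and Tiam1, a Rac exchange factor (0.97 ± 0.14), at adjusted p-values of 0.00644, 0.00644 and 0.00813. Without young control 3 they stood at 0.0617, 0.0617 and 0.0621, and Cadm1 and Tiam1 stood at 0.0582 each without young control 2.

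Fewer genes fell. Clca1, a secreted regulator of chloride channels, lay at 8.05, 21.9 and 8.38 CPM in the young and 1.11, 1.19, 0.0957, 0.256 and 0.164 CPM in the old libraries (log2 fold change -4.45 ± 0.85, adjusted p = 0.0391). Fam13a, a regulator of fat cell insulin signalling and fat distribution, lay at 214, 433 and 512 CPM in the young and 145, 85.1, 58.0, 141 and 200 CPM in the old libraries. Old control 5 came near young control 1 for Fam13a, and the log2 fold change was -1.62 ± 0.33 (adjusted p = 0.0451). Nrg4, a hormone-like factor that fat releases to act on the liver, lay at 86.7, 85.8 and 140 CPM in the young and 58.6, 36.2, 18.1, 30.3 and 31.7 CPM in the old libraries (log2 fold change -1.58 ± 0.31, adjusted p = 0.0402). Gpx8, a peroxidase of the endoplasmic reticulum, lay at 24.4, 27.4 and 47.0 CPM in the young and 12.4, 9.51, 5.46, 12.2 and 14.2 CPM in the old libraries (log2 fold change -1.61 ± 0.28, adjusted p = 0.0284). Mfng, a sugar transferase that modifies Notch receptors, Sfxn1, a mitochondrial serine transporter, and Rexo5, an RNA exonuclease, fell by 1.02, 1.02 and 0.92 on the log2 scale. Each of these 7 genes lost the call without young control 2 and without young control 3, with adjusted p-values up to 0.2499 (Fam13a). All 7 lost it also without old control 2 (0.0538 to 0.0858) or 4 (0.0512 to 0.0857). The same held in the fit of the control libraries alone (0.1486 to 0.2287).

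Krt5 was the called gene of the mammary list. Of 24 mammary epithelium genes 1, Krt5, rose (0.420% of all genes) and 23 did not pass, with a list median of 0.77. Under an unadjusted p of 0.05 in edgeR stood 11 of the 24 (13.1% of all genes), and DESeq2 called 5 (3.85% of all genes). Krt5, a basal cell keratin, lay at 30.7, 29.9 and 5.64 CPM in the young and 104, 106, 89.1, 126 and 118 CPM in the old libraries, which were tightly grouped (log2 fold change 2.30 ± 0.46, adjusted p = 0.0451). Its basal partner Krt14 lay at 24.99, 26.98 and 4.95 CPM in the young and 112, 69.9, 42.6, 67.8 and 66.2 CPM in the old libraries and did not pass (adjusted p = 0.112), and Trp63, the transcription factor that defines basal cells, stood at 1.93 ± 0.45 (adjusted p = 0.0741). Fat2, an epithelial protocadherin, Cdh3, P-cadherin, Lama3, a basement membrane laminin chain, and Foxc1, a transcription factor, all chosen after their values were seen, rose by 3.01, 1.87, 1.37 and 2.36 on the log2 scale (adjusted p 0.0363, 0.0354, 0.0340 and 0.0284). Each of these 4 lost the call without any 1 of the 3 young libraries (Fat2 0.0582 to 0.185, Cdh3 0.0582 to 0.106, Lama3 0.0753 to 0.119, Foxc1 0.0753 to 0.160) and without old control 4 (0.0571, 0.0512, 0.0571 and 0.0512). Fat2, Cdh3 and Lama3 lost it also without old control 3 (0.0505, 0.0534 and 0.0530), and Fat2 and Cdh3 without old control 2 (0.0538 and 0.0616). The luminal keratins Krt8 and Krt18 did not pass (log2 fold changes -0.25 and -0.21). Young control 3 held 656 CPM summed over the mammary list, against 2706 and 3806 in the other young libraries and 1456 to 13090 in the old ones. Without it Krt5 had a log2 fold change of 1.84 and no call (adjusted p = 0.0974), as was so without young control 1 (0.0974) or 2 (0.106) and without old control 2, 3 or 4 (0.0706, 0.0625 and 0.0849). The part of mammary tissue content in these values was not tested. The milk genes Csn2, Csn1s1, Wap and Lalba reached 5882, 2989, 313 and 89.4 CPM in old control 2 and did not pass. Of 12 keratinocyte genes tested, Trp63 among them, none passed in edgeR. Of the 12, 2 were under an unadjusted p of 0.05 (13.1% of all genes), and DESeq2 called 2 (3.85% of all genes). Their summed level ran from 35.5 to 62.49 CPM in the young and from 62.75 to 237.8 CPM in the old libraries.

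Of the plasma cell list Jchain rose, and no immunoglobulin constant region and no B or T cell marker passed. Jchain, which joins secreted IgA and IgM, lay at 7.91, 5.58 and 5.79 CPM in the young and 22.5, 47.3, 28.9, 43.3 and 61.7 CPM in the old libraries. It rose by a log2 fold change of 2.66 ± 0.54 (adjusted p = 0.0475), the 1 called gene of 15 plasma cell genes (0.420% of all genes rose). Their median was 0.54, and their summed level overlapped between the groups (562 to 747 CPM in the young, 532 to 747 CPM in the old). Of the 15, 2 had all old libraries above all young ones (5.18% of all genes). Under an unadjusted p of 0.05 in edgeR stood 5 (13.1% of all genes), and DESeq2 called 2 (3.85% of all genes). Of 9 immunoglobulin constant regions tested, 7 had a fold change above 0 and 2 below 0. All old libraries were above all young ones in 2 of the 9 (5.18% of all genes). In edgeR 5 were under an unadjusted p of 0.05 (13.1% of all genes), and 4 were called by DESeq2 (3.85% of all genes). Ighm, the IgM heavy chain, lay at 419, 273 and 397 CPM in the young and 673, 1372, 949, 695 and 1070 CPM in the old libraries, and Igkc, the kappa light chain, at 114, 88.1 and 105 CPM and 248, 444, 446, 397 and 430 CPM. In both the groups were separate, and neither passed (log2 fold changes 1.39 ± 0.33 and 1.94 ± 0.47, adjusted p 0.0783 and 0.0841). Summed over 9 constant regions, immunoglobulin reads ran from 417 to 598 CPM in the young and from 1132 to 2439 CPM in the old libraries. By contrast, the 18 B cell genes summed to 1171 to 1571 CPM in the young, to 280 and 491 CPM in old controls 2 and 5, and to 1039 to 2179 CPM in the other old libraries. No B cell gene and no T or NK cell gene (of 25) passed, 0 and 4 were under an unadjusted p of 0.05 in edgeR, and 0 and 1 were called by DESeq2 (13.1% and 3.85% of all genes). Their medians were -0.65, with 17 of 18 genes below 0, and -0.69, with 22 of 25 below 0; without old controls 2 and 5 they were 0.03 and -0.01. Jchain was not called without those libraries (adjusted p = 0.082), nor without any 1 of the 3 young libraries or of old controls 2, 3, 4 and 5 (0.05004 to 0.256). Tpsb2, a mast cell tryptase, rose from 9.76, 8.06 and 6.74 CPM to 17.02, 16.5, 15.2, 11.7 and 17.6 CPM (log2 fold change 0.93 ± 0.19, adjusted p = 0.0451). It was the 1 called gene of 12 mast cell genes (0.420% of all genes rose), 5 of which had all old libraries above all young ones (5.18% of all genes). In edgeR 7 of the 12 were under an unadjusted p of 0.05 (13.1% of all genes), and DESeq2 called 4 (3.85% of all genes). The mast cell median was 0.86, or 0.88 without old controls 2 and 5. Summed, the 12 genes ran from 92.3 to 160 CPM in the young and from 232 to 329 CPM in the old libraries. Tpsb2 lost the call without each library except old control 5 (adjusted p 0.05096 to 0.263). None of 22 macrophage, 18 lipid-associated macrophage, 30 interferon-stimulated or 17 complement genes passed, with list medians of 0.23, 0.50, -0.49 and 0.22, or 0.12, -0.05, -0.20 and 0.04 without old controls 2 and 5. Of these, 6, 6, 8 and 5 were under an unadjusted p of 0.05 in edgeR (13.1% of all genes), and DESeq2 called 1, 3, 1 and 2 (3.85% of all genes).

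None of 26 adipocyte identity genes passed, against 0.490% of all genes, 22 of them had a fold change below 0, and the median was -0.23, or -0.77 without old controls 2 and 5. Under an unadjusted p of 0.05 in edgeR stood 5 of the 26 (13.1% of all genes), and DESeq2 called 3 (3.85% of all genes). Adipoq, the gene of adiponectin, lay at 753, 976 and 1024 CPM in the young and 735, 1065, 406, 460 and 1473 CPM in the old libraries, which therefore overlapped. Cfd, the gene of adipsin, lay at 5861, 7986 and 7608 CPM in the young and 5044, 633, 1247, 2795 and 3073 CPM in the old libraries; all old values were lower, but they spread so widely that the test was not passed (log2 fold change -1.48 ± 0.48, adjusted p = 0.185). Pck1, which makes the glycerol backbone for triglyceride, came nearest, from 1149, 2712 and 2400 CPM to 908, 532, 279, 509 and 945 CPM (log2 fold change -1.72 ± 0.39, adjusted p = 0.0668), and passed without old control 1 (0.0477) or 5 (0.0456). None of 26 genes of fatty acid and triglyceride synthesis passed (median -0.59; 12 under an unadjusted p of 0.05, against 13.1% of all genes, and 2 called by DESeq2, against 3.85%), among them Fasn, fatty acid synthase, at 22270, 11680 and 27790 CPM in the young and 19790, 6446, 5088, 16210 and 3252 CPM in the old libraries. Within that list the desaturases Fads1 and Fads2 lay higher in all old libraries, at log2 fold changes of 0.62 and 1.38 (adjusted p 0.0853 and 0.0882). None of 24 cholesterol synthesis, 22 fatty acid oxidation, 20 thermogenic, 23 insulin signalling or 13 mitochondrially encoded respiratory chain genes passed, with medians of -0.08, -0.24, 0.07, 0.09 and -0.32. Without old controls 2 and 5 these medians were -0.11, -0.64, -0.55, -0.22 and -0.46, so that those of the thermogenic and insulin lists changed sign. Of these, 5, 1, 4, 6 and 1 were under an unadjusted p of 0.05 in edgeR (13.1% of all genes), and DESeq2 called 0 in each list (3.85% of all genes).

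Thbs1 was the called gene of the matrix list, and no gene of the senescence or stress lists passed. Gadd45a, a DNA damage response gene outside these lists, was called and is described below. Of 33 genes of matrix assembly 1 rose (0.420% of all genes), Thbs1, thrombospondin. In edgeR 10 of the 33 were under an unadjusted p of 0.05 (13.1% of all genes), and DESeq2 called 4 (3.85% of all genes). The median of the matrix list was 0.19, or -0.26 without old controls 2 and 5. Thbs1 lay at 58.4, 88.0 and 56.9 CPM in the young and 111, 348, 269, 302 and 612 CPM in the old libraries (log2 fold change 2.28 ± 0.41, adjusted p = 0.0309). Old control 1 was the lowest and old control 5 the highest of the old for Thbs1, and it lost the call without old control 2 (0.0538) or 4 (0.0517) or any 1 young library (0.0851 to 0.202). None of 18 collagens passed: Col1a1 ranged from 1696 to 2332 CPM in the young and from 787 to 2680 CPM in the old libraries, and the collagen median turned from 0.14 to -0.50 without old controls 2 and 5. Of 24 senescence genes tested none passed in edgeR, 7 were under an unadjusted p of 0.05 (13.1% of all genes) and 2 were called by DESeq2 (3.85% of all genes). Cdkn2a, which encodes the cell cycle inhibitor p16, lay at 0.407, 0.207 and 0.211 CPM in the young and 1.63, 1.16, 1.77, 2.20 and 0.901 CPM in the old libraries. The groups of Cdkn2a did not overlap (log2 fold change 2.44 ± 0.57, adjusted p = 0.0728), and it passed without old control 5 (0.0482) and without old controls 2 and 5 (0.0489). Cdkn1a, the p21 gene, did not pass (0.93 ± 0.33, adjusted p = 0.221). Atf3, a stress-induced transcription factor, came near the threshold (2.49, 2.48 and 1.63 CPM in the young, 5.45, 10.7, 7.08, 5.12 and 5.04 CPM in the old; adjusted p = 0.0547). Of 29 secreted factors tested 1 fell, Nrg4 (0.0707% of all genes fell), and 28 did not pass. The list median was 0.47, with 19 genes above 0 and 10 below. All old libraries were above all young ones in 6 of them (5.18% of all genes) and below in 3 (2.93%). Of the 29, 15 were under an unadjusted p of 0.05 in edgeR (13.1% of all genes), and DESeq2 called 9 (3.85% of all genes). None of 35 cell cycle, 20 chaperone, 22 antioxidant or 18 immediate early genes passed in edgeR; 4, 0, 5 and 5 were under an unadjusted p of 0.05 (13.1% of all genes), and DESeq2 called 1, 0, 1 and 3 (3.85% of all genes).

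The ANKO libraries gave a second, separate set of young and old fat. There 1345 genes passed (6.34% of those tested), 380 higher (1.79%) and 965 lower (4.55%). Of the 104 genes called in controls, 101 had the same direction in ANKO fat. How many of all tested genes share a direction in both genotypes was not counted, so no background share stands beside this. Of the 104, 63 (60.6%) were called in ANKO fat in the same direction, 52 higher and 11 lower. Both comparisons share 1 estimate of spread but no library. Dbp, Per2, Per3, Nr1d2 and Arntl were among the 63, with ANKO log2 fold changes of -1.39, -0.76, -0.79, -0.46 and 0.73. Npas2 was not among the 63, since Arntl was the 1 clock gene called higher in ANKO fat. Krt5 was not among them either, since 0 genes of the mammary list were called higher there. In the chromosome 1 interval 12 of 16 genes were called higher in ANKO fat, and C130026I21Rik had a log2 fold change of 3.96 there. Jchain rose by 3.16 and Cdkn2a by 2.16 on the log2 scale in ANKO fat (adjusted p 0.00388 and 0.023). Adipocyte genes stood otherwise: 21 of 26 identity genes and 24 of 26 lipid synthesis genes were called lower in ANKO fat, with medians of -1.86 and -2.65 against -0.23 and -0.59 in controls. No gene of either list passed the test of the difference between genotypes; Fasn had a log2 fold change of -1.02 ± 0.50 in controls and -3.85 in ANKO fat, with an adjusted p of 0.191 for the difference.

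**Figure D5:**
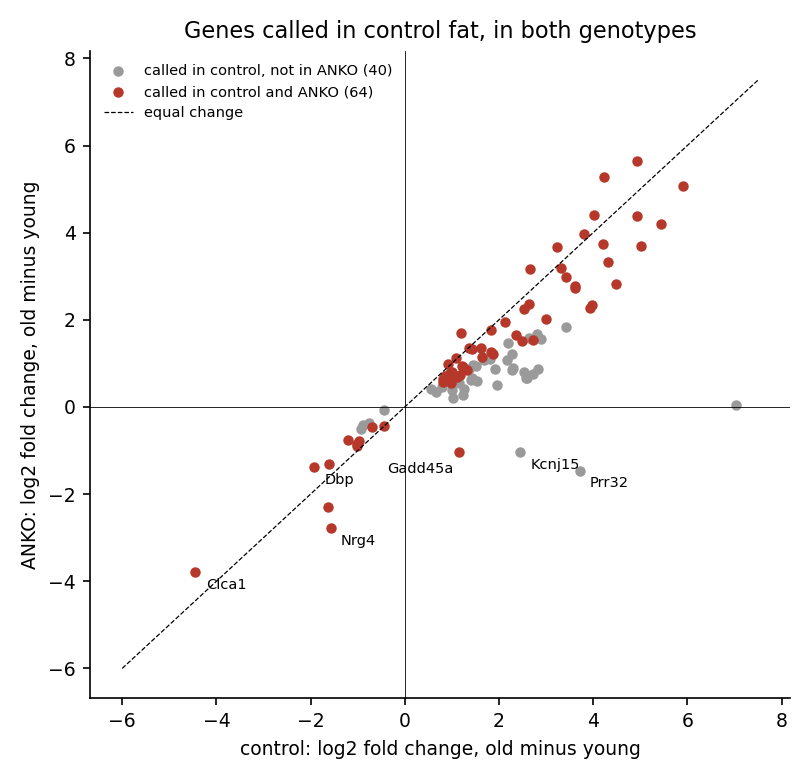
Log2 fold change of old against young in control fat (x axis) and in ANKO fat (y axis) for the 104 genes called in controls; red points are called in both genotypes, and the dashed line marks equal change. Gadd45a, Kcnj15 and Prr32 are the 3 genes with opposite directions, and the other 101 share a direction.

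The test of the difference of ageing between genotypes called 1 gene of 21206 (0.00472%), Gadd45a, a growth arrest and DNA damage response gene (chromosome 6, 67035096 to 67037457). Gadd45a lay at 7.77, 6.46 and 5.85 CPM in the young and 15.8, 16.7, 12.1, 10.5 and 19.7 CPM in the old controls, all old above all young (log2 fold change 1.16 ± 0.21, adjusted p = 0.0340). In ANKO fat it went the other way, from 12.5, 17.1 and 14.8 CPM to 6.38, 8.88, 7.25, 5.65 and 7.69 CPM (-1.04 ± 0.20, adjusted p = 0.00643). The difference, ANKO minus control, was -2.20 ± 0.29 on the log2 scale (adjusted p = 0.040). It was not called without any of young controls 1, 2 and 3 (0.0688, 0.140 and 0.155) or old controls 1 and 2 (0.0571 and 0.117), and the rise of Gadd45a in controls was not called without any 1 young control (0.0753 to 0.211) or old control 2 (0.0668). Among the next in order were Impdh1, which makes guanine nucleotides, and Acot2, a mitochondrial thioesterase, with differences of -1.20 and -1.24 at an adjusted p of 0.0577 each; in controls their log2 fold changes were 0.04 and 0.01. In the other direction C3, the central complement protein, had a difference of 1.48 ± 0.29 (adjusted p = 0.0768), with log2 fold changes of -0.62 in controls and 0.86 in ANKO fat, and Csrp2, Tcf24 and Nr5a2 followed (adjusted p 0.156, 0.181 and 0.181).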

How the data were processed

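The authors deposited raw counts of reads, 1 row per gene symbol and 1 column per library. GRCm38, Subread, STAR (2.0.4b) and featureCounts (1.45) are named in the submitters' processing notes. No source used here states the annotation release, the strand setting or how reads with several matches were counted, so genes whose exons overlap another gene (such as Dbp, Arntl, Krt5, Thbs1, Fam13a, Brinp3, Togaram2, S100a4, Muc4, Nrg4, Rexo5, Gadd45a and C130026I21Rik) are uncertain. Of 40757 lines, 322 repeated another in full and 113 shared a symbol with a deeper line, which left 40322; 24 symbols had become dates (0.126% of reads) and were kept.

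CPM with TMM factors, and edgeR (4.0.16, R 4.3.3) quasi-likelihood F-tests with filterByExpr by group and robust fits, came from 1 model of the 4 groups over 16 libraries. Adjustment was Benjamini-Hochberg over 21206 genes, with a threshold of 0.05; SE is the log2 fold change over the square root of F. DESeq2 (1.42.0) was an alternative. The principal components used log2 CPM with a prior count of 2. Simulated counts with known changes were also put through the edgeR fit, and the outcome is not reported here. Positions came from GENCODE M21 by symbol, and figures were drawn with matplotlib.

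The members and the 43 lists (809 genes, 29 of them in 2 or more lists, 804 in the table, 784 tested) were chosen with earlier results of these data known, and lists got counts and medians, not tests. Of the listed genes 11 were called, in 6 of the 43 lists. Genes named were Nampt, the 10 highest and 10 lowest fold changes among called, non-overlapping genes of at least 1 CPM on average, without predicted models, pseudogenes and immunoglobulin or T-cell receptor segments, the first 3 and up to 5 smallest p of each list, and the 4 smallest p per direction for the difference between genotypes; some genes that the rule names are not reported here. The highest and lowest sets were drawn from 71 eligible genes that rose and 15 that fell. Other genes are named as chosen after their values were seen, or given as neighbours or library markers. Same-numbered young and old control libraries did not deviate together (correlations 0.02, 0.20 and -0.03), so numbers were not used as pairs.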

Additional observations from a re-analysis of the deposited data

Results flagged for a closer look

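In the old controls, 6 of the 56 genes followed through the alternatives had 1 library whose gap to its neighbour was more than 0.71 of the group's range; chance alone gives about 1 in 20. Old control 5 was the high library for Tef, at 135 CPM against 82.5 for the next. Old control 1 was the high library for Gdap10 (23.5 CPM against 18.4), Fat2 (90.9 against 42.1) and Trp63 (100.3 against 44.8), and the low one for Igkc (248 against 397). Old control 4 was the high library for Sox14, at 10.5 CPM against 4.55.

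Gadd45a was flagged because its ageing differed between genotypes by the test of the difference itself: -2.20 on the log2 scale, ANKO minus control. All 5 old controls were above all 3 young controls, and all 5 old ANKO libraries were below all 3 young ANKO libraries.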

How the results depend on the processing

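RLE size factors, library totals and the stricter filter (1 CPM in 3 libraries) kept the count of calls within 1.5 times of 104, at 105, 91 and 111. No filter gave 60 calls (51 higher, 9 lower), of which all 60 were among the 104, and DESeq2 gave 816 (653 higher, 163 lower), which held all 104. The 8 control libraries alone gave 4 (3 higher, 1 lower), 3 of them among the 104. Leaving out 1 control library gave 6 to 212 calls (5 to 180 higher, 1 to 40 lower). Leaving out old controls 2 and 5, an alternative added with the data known, gave 192 (139 higher, 53 lower). For the difference between genotypes, the full comparison called 1 gene. Library totals gave 11, no filter 7, the stricter filter 0 and DESeq2 274. Leaving out 1 control library gave 0 to 79, and leaving out old controls 2 and 5 gave 0. No ANKO library was left out in any fit.

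With the replicate number as a block, 4 genes were called (4 higher, 0 lower): AC133103.1, C130026I21Rik, Gm2619 and Tiam1; the difference between genotypes kept 1 call, Gadd45a. The numbers do not pair these libraries.

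None of the 56 genes followed changed direction in any of the 16 alternatives. Of the 56, 46 were called genes, whose old and young libraries do not overlap. Leaving out libraries could therefore hardly reverse them, and their unchanged direction is no test of stability. Of these 46, 40 lost the call without young control 2, 40 without young control 3, and 43 in the fit of the control libraries alone. List medians moved by more than the spread between libraries for 11 of 43 lists without old controls 2 and 5. Depth of 19277403 to 30779298 reads leaves genes such as Gm16025 and Chst9 with 2 or 3 reads in all young libraries, so their fold changes are wide.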
